A study of Homo sapiens with 8 samples.

Results

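The genes described here are 10 standard epithelial and mesenchymal markers, measured in HEK293T cells that overexpressed KCNQ3 and in normal HEK293T cells. They are the keratins KRT8, KRT18 and KRT19, the surface proteins EPCAM and MUC1, the cadherins CDH1 and CDH2, the tight junction scaffold TJP1, the filament protein VIM and the transcription factor ZEB1. They were chosen by name, with earlier results of these data known, and each gene's level is the sum over its annotated Ensembl transcripts. They are 10 of the 58592 annotated genes with a deposited transcript, and 9 of them had enough counts to be among the 19280 genes tested. KRT19 was at 0 in every library.

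The study compared KCNQ3 overexpression with normal cells in 4 libraries each. KCNQ3 is a potassium channel gene whose product helps to carry the M-current of neurons. HEK293T was derived from human embryonic kidney and expresses the SV40 large T antigen, and both groups came from this 1 line. The overexpressing cells were transfected with a tagged human KCNQ3 reading frame by the FuGene HD reagent, and RNA was extracted 48 hours later. The labels give that transfection text for all samples, so the sources used here do not say whether the normal cells, called control below, received reagent or an empty plasmid. The 4 libraries of a group are called biological replicates, and nothing says that their cultures were started separately. The p-values therefore cover the spread between these libraries alone, which may be technical.

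Epithelial cells hold to each other through adherens junctions built on E-cadherin (CDH1), seal the space between them with tight junctions anchored by ZO-1 (TJP1), and carry a keratin cytoskeleton in which KRT8 pairs with KRT18. In the epithelial-mesenchymal transition, repressors such as ZEB1 shut down E-cadherin and its partners, while vimentin (VIM) and N-cadherin (CDH2) become prominent. Cultured embryonic kidney lines are known to carry markers of both states.

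Total estimated counts ran from 24020097 to 30734915 per library, and control replicate 1 was the deepest. KCNQ3 had 15283, 15874, 19709 and 18603 counts in the overexpression libraries, against 4, 5, 0 and 2 in the control libraries (log2 fold change 12.63, SE 0.25; edgeR quasi-likelihood, Benjamini-Hochberg adjusted p = 6.45e-07), which checks the labels. Mitochondrial transcripts made up 4.82% to 5.84% of an overexpression library and 3.99% to 5.59% of a control library. Of embryonic kidney regulators, HOXD11 averaged 19.7 ± 2.17 CPM in overexpression libraries and 19.4 ± 0.714 CPM in control libraries (SD, n = 4 each). CPM are counts scaled by library size and TMM factor. None of the 7 tested genes of the 8 on that list passed the test, and its summed level was 123 to 143 CPM in overexpression libraries and 129 to 139 CPM in control libraries. Markers of blood and endothelium were low. The summed level of the 8 blood genes was 3.09 to 3.35 CPM under overexpression and 2.33 to 3.61 CPM in controls, and that of the 6 endothelial genes was 0.337 to 0.633 CPM under overexpression and 0.278 to 0.680 CPM in controls. The blood genes PTPRC, CD3E and HBB and the endothelial gene CDH5, defining markers named with their values known, were at 0 in all libraries. They were the only 3 of the 8 blood genes and 1 of the 6 endothelial genes at 0, and the rest had counts. For comparison, the low marker EPCAM had 1.78 ± 0.261 CPM under overexpression and 2.34 ± 0.322 CPM in controls. The 8 fibroblast genes summed to 16.65 to 20.97 CPM under overexpression and 17.23 to 20.48 CPM in controls, most of it COL1A1 (15.2 ± 1.84 CPM under overexpression and 15.4 ± 1.35 CPM in controls), with DCN, COL1A2 and FAP, also named with their values known, at 0. The 8 neuron and glia genes summed to 31.8 to 33.4 CPM under overexpression and 33.2 to 35.4 CPM in controls, led by SYT1 and GAD1. No gene of these 4 lists passed the test.

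VIM led the order of levels, CDH2 and KRT18 followed at a like level, and EPCAM, CDH1 and MUC1 were the lowest of the detected markers. In deposited TPM, which divide by transcript length and so allow genes to be compared, VIM stood far above the rest at 578 ± 47.6 in overexpression libraries and 660 ± 71.4 in control libraries (SD, n = 4 each), and ranked 202 among all genes in controls. CDH2 followed with 36.7 ± 3.18 TPM under overexpression and 37.7 ± 2.14 TPM in controls and KRT18 with 36.7 ± 0.609 TPM under overexpression and 37.5 ± 4.54 TPM in controls, and these neighbours did not differ beyond their spread. TJP1 had 17.8 ± 2.37 TPM under overexpression and 21.4 ± 2.81 TPM in controls, ZEB1 12.2 ± 1.40 TPM under overexpression and 17.6 ± 2.59 TPM in controls, and KRT8 12.9 ± 0.778 TPM under overexpression and 16.0 ± 2.93 TPM in controls. The control ranges of these 3 overlapped pairwise. EPCAM had 2.01 ± 0.357 TPM under overexpression and 2.60 ± 0.349 TPM in controls, CDH1 2.33 ± 0.308 TPM under overexpression and 2.33 ± 0.440 TPM in controls, and MUC1 1.15 ± 0.214 TPM under overexpression and 0.944 ± 0.0661 TPM in controls. EPCAM and CDH1 overlapped in their ranges, and MUC1 lay below both in every library. Within each library CDH2 was 16.0 ± 2.94 times CDH1 under overexpression and 16.5 ± 2.29 times CDH1 in controls, and VIM was 11.6 ± 0.953 times the sum of KRT8 and KRT18 under overexpression and 12.4 ± 0.323 times that sum in controls, with overlapping ranges in both cases.

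**Figure D1:**
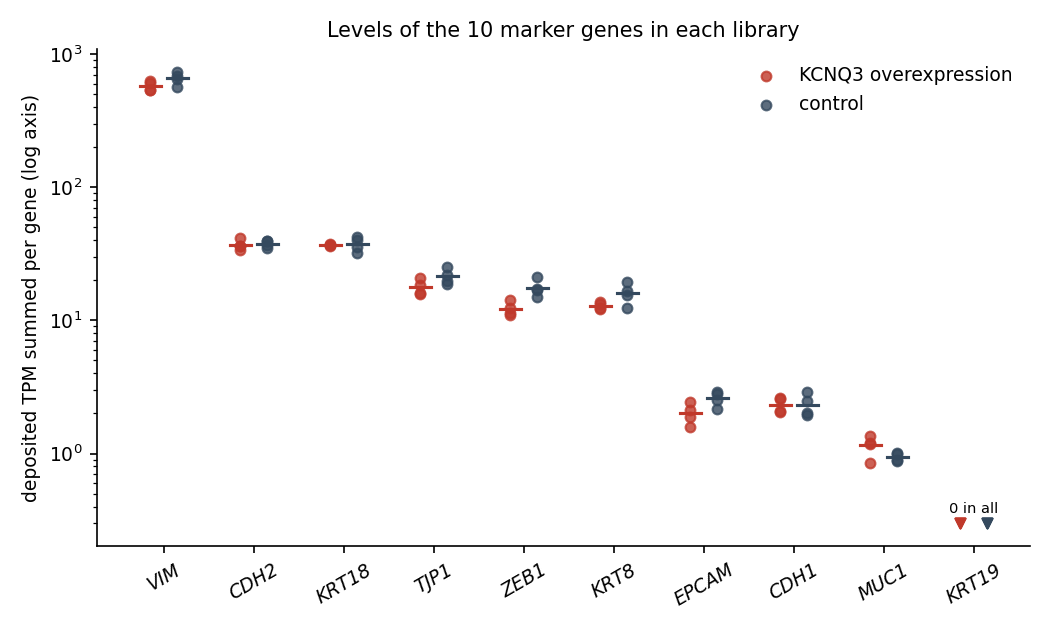
Deposited TPM summed per gene (log axis) of the 10 markers in the 4 KCNQ3 overexpression and the 4 control libraries, ordered by control level, with points for libraries, horizontal lines for group means and triangles for KRT19. VIM lies above all other markers in each group, EPCAM, CDH1 and MUC1 lie below 3 TPM, and KRT19 is at 0 in all libraries.

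None of the 9 tested markers had an adjusted p under 0.05 (edgeR quasi-likelihood, Benjamini-Hochberg over all genes), where 0.301% of all tested genes did, 0.109% above control and 0.192% below. Without adjustment 7 of the 9 had p under 0.05, against 19.4% of all tested genes. Of these 7, KRT8, KRT18, EPCAM, TJP1, VIM and ZEB1 had levels below control, where 9.46% of all genes had such a p in that direction, and MUC1 had a level above control, where 9.92% did. DESeq2 called KRT8 (adjusted p = 0.0256) and ZEB1 (adjusted p = 0.0312) of the 7 markers for which it gave an adjusted p, against 9.9% of all genes with one, and limma on log2 TPM called 0. The median log2 fold change of the 19280 genes was 0.009. In CPM, 2 of the 9 markers, MUC1 and ZEB1, had groups that did not overlap, against 11.6% of all genes. The markers were chosen with earlier results of these data known, so these contrasts with all genes are no test of the markers as a set. The sizes were small, between 0.76 and 1.33 times control. The libraries are bulk RNA, so fewer cells that carry a transcript and less of it per cell cannot be told apart.

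**Figure D2:**
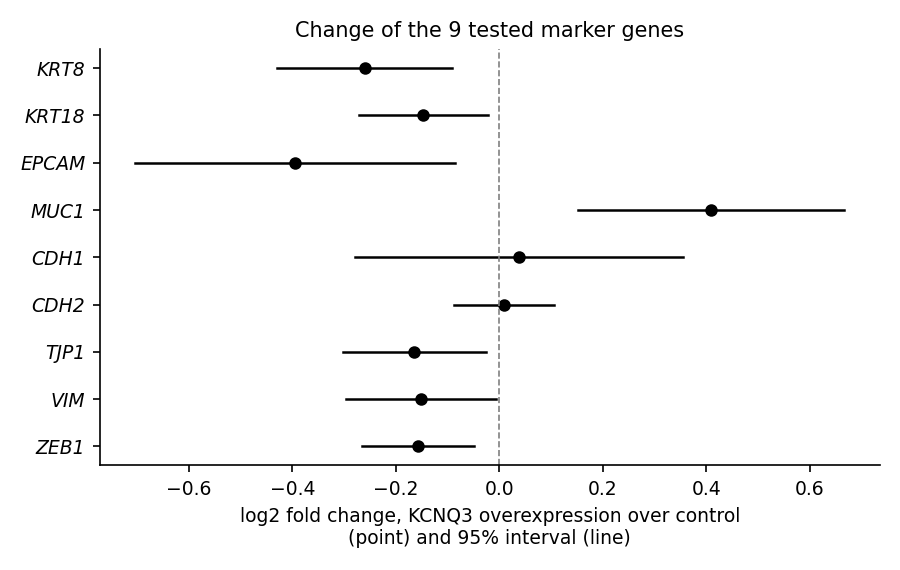
Log2 fold change of CPM, KCNQ3 overexpression over control, of the 9 tested markers with 95% intervals from edgeR's quasi-likelihood test, 4 libraries a group. EPCAM (-0.39) and MUC1 (0.41) lie farthest from 0 on opposite sides, with broad intervals at low counts, and the interval of CDH2 (-0.09 to 0.11) is the narrowest around 0.

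KRT8 (ENSG00000170421, chr12:52897187-52949954, minus strand, GRCh38) and KRT18 (ENSG00000111057, chr12:52948871-52952901, plus strand) are neighbours whose annotations overlap by 1084 bases on opposite strands, and the sources used here do not say whether counting used strand. KRT8 had 426, 400, 481 and 394 counts in overexpression libraries, against 684, 531, 489 and 435 in control libraries. In CPM that was 16.0, 16.5, 17.9 and 16.3 under overexpression and 22.1, 20.1, 20.4 and 17.3 in controls. Control replicate 1 was the highest and control replicate 4 lay within the overexpression range. The log2 fold change of KRT8 was -0.26 (SE 0.08, 95% interval -0.43 to -0.09; edgeR adjusted p = 0.118).

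KRT18, the type I keratin that KRT8 needs as its partner, had 793, 789, 920 and 743 counts in overexpression libraries, against 1110, 902, 896 and 846 in control libraries, or 29.7, 32.6, 34.3 and 30.8 CPM under overexpression against 35.9, 34.1, 37.4 and 33.6 CPM in controls. The groups overlapped in overexpression replicate 3. Its log2 fold change was -0.15 (SE 0.06, 95% interval -0.27 to -0.02; edgeR adjusted p = 0.194), and on log2(TPM + 1) by limma it was -0.02. Within each library the ratio of KRT18 to KRT8 in TPM was 3.00, 3.01, 2.69 and 2.71 under overexpression and 2.15, 2.13, 2.62 and 2.58 in controls. All overexpression libraries lay above all controls by that ratio, but the ratio of summed counts overlapped between the groups (1.91 ± 0.0477 under overexpression and 1.77 ± 0.143 in controls), so the groups separated in TPM and not in counts. KRT19 (ENSG00000171345, chr17:41523617-41528308), a keratin of simple ductal epithelia, had 0 counts in all 8 libraries, which allows a level of at most 0.0971 to 0.125 CPM per library at 3 counts, counting error only.

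Simple keratins have many processed copies in the genome, and reads from such copies cannot be assigned with certainty. GENCODE lists 50 KRT8 pseudogenes, of which 42 had a count, and 67 KRT18 pseudogenes, of which 61 did. They took 39.7% ± 0.332 of the KRT8 family's counts under overexpression and 38.2% ± 1.77 in controls, and 34.3% ± 2.11 of the KRT18 family's under overexpression and 34.3% ± 1.27 in controls (SD, n = 4 each). Of the 50-base windows of the main transcripts, 32.6% of those of KRT8-216 and 35.1% of those of KRT18-202 also occurred in an annotated KRT8, KRT18 or KRT19 pseudogene. Summed with their pseudogenes, KRT8 had a log2 fold change of -0.22 (edgeR adjusted p = 0.109) and KRT18 of -0.15 (adjusted p = 0.130), so counting the copies left both values below 0 and outside the threshold.

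Beyond the members, KRT10, a keratin of the type I class, had 36.2 ± 10.7 TPM under overexpression and 40.7 ± 2.14 TPM in controls. In CPM it had 15.6 ± 0.922 under overexpression and 14.7 ± 1.25 in controls, with a log2 fold change of 0.09. Overexpression replicate 2 had the lowest TPM of its group (20.4) but the highest CPM (16.9). The keratin list held 14 genes, 7 of them at 0 in all libraries, namely KRT7, KRT19, KRT5, KRT14, KRT20, KRT23 and KRT81. None of its 4 tested genes passed, 3 of the 4 had values below 0, and the median log2 fold change was -0.17, against 0.009 over all genes. The summed keratin level was 61.8 to 68.0 CPM in overexpression libraries and 67.8 to 73.7 CPM in controls. KRT80, named after its values were seen, was not tested and had 0 counts in each overexpression library, against 4, 4, 3 and 4 in the control libraries.

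The pair of low-level surface markers had fold changes of opposite sign. EPCAM (ENSG00000119888, chr2:47345158-47387601, plus strand) is an epithelial cell adhesion molecule that is cleaved by ADAM proteases and presenilin. It had 41, 39, 50 and 51 counts in overexpression libraries, against 66, 73, 49 and 61 in controls, or 1.54, 1.61, 1.86 and 2.11 CPM under overexpression against 2.14, 2.76, 2.04 and 2.42 CPM in controls. Overexpression replicate 4 lay above control replicate 3, so the groups overlapped. The log2 fold change was -0.39 (SE 0.14, 95% interval -0.70 to -0.09; edgeR adjusted p = 0.166).

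MUC1 (ENSG00000185499, chr1:155185824-155192916, minus strand) encodes a transmembrane mucin of the apical surface. Its counts were 63, 61, 68 and 56 under overexpression and 60, 42, 51 and 42 in controls. In CPM the overexpression libraries had 2.36, 2.52, 2.53 and 2.32, against 1.94, 1.59, 2.13 and 1.67 in the controls. Every overexpression library lay above every control in CPM, while in TPM the groups overlapped (1.19, 1.37, 1.19 and 0.854 under overexpression, against 1.01, 0.883, 0.995 and 0.890 in controls). MUC1 had a log2 fold change of 0.41 (SE 0.12, 95% interval 0.15 to 0.67; edgeR adjusted p = 0.111). On log2(TPM + 1), limma gave 0.14. CACCTG is the E-box element that ZEB and SNAIL factors bind. The 250 bases before the annotated MUC1 start (RefSeq, GRCh38.p14, chr1:155192916-155193165, minus strand) are shown because MUC1 is the marker with the highest fold change and because 2 such elements, in capitals, stand side by side in them.
MUC1: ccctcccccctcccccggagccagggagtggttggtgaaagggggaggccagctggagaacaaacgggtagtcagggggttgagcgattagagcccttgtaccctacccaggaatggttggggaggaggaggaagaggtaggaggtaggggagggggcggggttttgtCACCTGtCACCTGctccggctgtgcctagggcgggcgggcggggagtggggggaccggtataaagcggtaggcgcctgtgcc
CACCTG was searched on both strands, where it reads CAGGTG on the other, in windows from 250 bases before to 50 bases after each start. It occurs in 20.6% of the 35116 RefSeq windows, and at least 2 copies occur in 3.49%. RefSeq windows were matched for 6 of the 10 markers (KRT8, MUC1, CDH2, TJP1, VIM and ZEB1), and 5 of their 17 windows held the element. They were overlapping windows of MUC1 with the same 2 elements, a window of TJP1 with 1, and windows of ZEB1 with 1 and 3. TJP1 and ZEB1 had fold changes below control, unlike MUC1. The windows of KRT8 (chr12:52926420-52926719) and VIM (chr10:17227991-17228290) do not hold the starts of their main transcripts, KRT8-216 (52949842) and VIM-201 (17229278). The TJP1 window with the element (chr15:29969000-29969299) does not hold the start of TJP1-212 (29822503). That start lies in a window without the element (chr15:29822419-29822718). A match describes the letters and not binding.

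Of the 19 listed EPCAM and mucin partners, 11 were tested and none passed. Values lay above 0 for 7 and below 0 for 4, with a median log2 fold change of 0.03. The most abundant were SPINT2, a membrane protease inhibitor, with 63.7 ± 4.32 TPM under overexpression and 62.1 ± 5.45 TPM in controls, and the tetraspanin CD9 with 45.5 ± 1.9 TPM under overexpression and 43.1 ± 3.19 TPM in controls. CLDN7, the claudin that binds EPCAM, named after its values were seen, was low, with 14, 21, 16 and 17 counts under overexpression and 18, 19, 12 and 16 in controls.

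**Figure D3:**
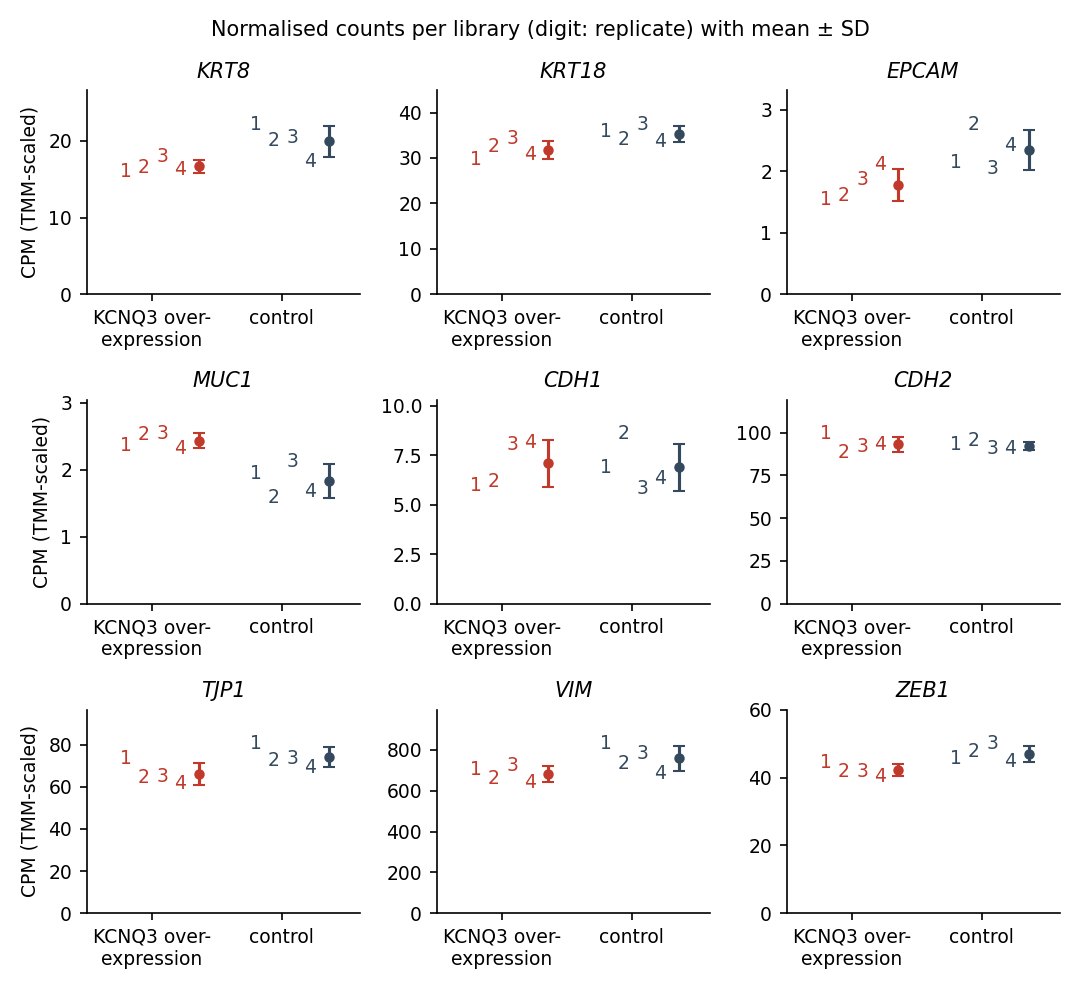
TMM-scaled CPM of the 9 tested markers in each library, with digits for replicate numbers and a point with a bar for mean and SD, the KCNQ3 overexpression group to the left of the control group, axes from 0. MUC1 and ZEB1 have groups that do not overlap, and control replicate 1 is the highest library for KRT8, TJP1 and VIM.

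The cadherins did not separate the groups. CDH1 (ENSG00000039068, chr16:68737225-68835548), E-cadherin, had 160, 149, 216 and 197 counts in overexpression libraries, against 212, 227, 140 and 159 in controls, or 5.99, 6.15, 8.05 and 8.16 CPM under overexpression against 6.86, 8.58, 5.84 and 6.31 CPM in controls. The ranges of the groups overlapped almost entirely. The log2 fold change of CDH1 was 0.04 (SE 0.14, 95% interval -0.28 to 0.36; edgeR adjusted p = 0.921). CDH2 (ENSG00000170558, chr18:27950966-28177446), N-cadherin, had 2650, 2137, 2462 and 2251 counts under overexpression and 2874, 2528, 2172 and 2283 in controls. Its CPM were 99.3, 88.3, 91.7 and 93.2 under overexpression and 93.1, 95.5, 90.6 and 90.7 in controls, with a log2 fold change of 0.01 (SE 0.04, 95% interval -0.09 to 0.11; edgeR adjusted p = 0.934). The direction of both cadherins turned with the setting, CDH2 to -0.01 with no scaling factor and both with single libraries left out. Over all 15 lists, the markers aside, edgeR called 0 of 125 tested genes. DESeq2 called 8 of the 94 for which it gave an adjusted p, against 9.9% of all such genes. These were JUP, PATJ, ZEB2, SNAI2, FN1, LMNA, TCHP and SKIL, named after their values were seen. Of the 16 cadherins, catenins and nectins listed, 12 were tested, none passed, 9 had values below 0, and the median was -0.07. The most abundant were CTNNB1 (beta-catenin; 156 ± 7.91 TPM under overexpression and 157 ± 7.81 in controls) and AFDN (afadin; 70.4 ± 6.98 TPM under overexpression and 82.6 ± 6.65 TPM in controls). JUP, plakoglobin, which links cadherins to keratin filaments at desmosomes, is named after its values were seen. It had 1797, 1391, 1715 and 1546 counts under overexpression, against 2822, 2219, 1878 and 1770 in controls. Its CPM did not overlap between the groups, but its TPM did (33.9 in overexpression replicate 1 and 32.8 in control replicate 4). Its log2 fold change was -0.36 (SE 0.08; edgeR adjusted p = 0.070). It passed without control replicate 4.

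TJP1 (ENSG00000104067, chr15:29699367-29968865, minus strand), the ZO-1 scaffold that ties tight junction strands to actin, had 1960, 1554, 1742 and 1487 counts in overexpression libraries, against 2489, 1920, 1758 and 1747 in controls. In CPM that was 73.4, 64.2, 64.9 and 61.6 under overexpression and 80.6, 72.6, 73.4 and 69.4 in controls. Only overexpression replicate 1 reached into the control range. TJP1 had a log2 fold change of -0.16 (SE 0.06, 95% interval -0.30 to -0.03; edgeR adjusted p = 0.193), and of -0.26 on log2(TPM + 1) by limma. Of 22 tight junction and polarity genes, 18 were tested, none passed, and 11 had values below 0 (median -0.05). The most abundant were SCRIB, a polarity scaffold, with 39.7 ± 2.68 TPM under overexpression and 39.3 ± 4.84 TPM in controls, and CLDN12, a claudin, with 30.3 ± 0.563 TPM under overexpression and 32.1 ± 0.801 TPM in controls. CLDN3, a typical claudin of epithelia, named after its values were seen, had at most 1 count per library in either group. Other genes of that list, also named after their values were seen, differed in level. CLDN4 and CLDN6 were low, and CLDN1 had 1.61 ± 0.0919 CPM under overexpression and 1.89 ± 0.264 CPM in controls. OCLN had 27.4 ± 0.877 CPM under overexpression and 28.1 ± 1.49 CPM in controls, and F11R 44.7 ± 1.38 CPM under overexpression and 41.9 ± 2.12 CPM in controls. Of 11 desmosome genes, 8 were tested and none passed (median -0.06). DSG2, a desmosomal cadherin, had 106 ± 6.78 TPM under overexpression and 109 ± 7.39 TPM in controls, and PERP, a desmosomal membrane protein, 42.9 ± 2.19 TPM under overexpression and 44.1 ± 3.23 TPM in controls.

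VIM (ENSG00000026025, chr10:17228259-17237593, plus strand) encodes the intermediate filament of mesenchymal and many cultured cells. It had 18832, 15947, 19452 and 15501 counts in overexpression libraries, against 25689, 19430, 18746 and 17241 in controls, or 706, 659, 725 and 642 CPM under overexpression against 832, 734, 782 and 685 CPM in controls. The groups overlapped, with control replicate 4 below the overexpression libraries 1 and 3, and control replicate 1 the highest. The log2 fold change was -0.15 (SE 0.07, 95% interval -0.30 to -0.01; edgeR adjusted p = 0.237). Part of the level of control replicate 1 sat on VIM-206, a transcript of the nonsense-mediated decay type named after its values were seen, with 193, 46, 127 and 234 counts under overexpression and 3982, 151, 107 and 203 in controls. VIM-201, which held 96.0% of the gene's TPM, had a log2 fold change of -0.11 (SE 0.07; edgeR adjusted p over transcripts = 0.930). VIM-AS1, an antisense RNA named because it overlaps VIM, had 1.45 ± 0.970 CPM under overexpression and 0.605 ± 0.611 CPM in controls.

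Of 18 mesenchymal structural and matrix genes, 14 were tested and none passed, with 8 above 0, 6 below and a median of 0.01. VIM and ITGB1, the beta 1 integrin chain, were the most abundant, and ITGB1 had 76.9 ± 4.05 TPM under overexpression and 79.7 ± 4.29 TPM in controls. Of 17 other filament, lamin and linker genes, VIM included, 15 were tested and none passed, 13 had values below 0 and the median was -0.11, where 47.4% of all tested genes were below 0. LMNB1, a nuclear lamin, was the most abundant after VIM, with 103 ± 7.69 TPM under overexpression and 115 ± 11.4 TPM in controls. TCHP (trichoplein), a keratin-binding protein, and LMNA (lamin A/C), both named after their values were seen, had log2 fold changes of -0.32 (SE 0.07; edgeR adjusted p = 0.0628) and -0.27 (SE 0.06; edgeR adjusted p = 0.0630). In both, all overexpression libraries lay below all controls, at 18.6 ± 1.25 CPM under overexpression and 23.3 ± 1.48 CPM in controls for TCHP and 51.7 ± 1.44 CPM under overexpression and 62.1 ± 4.87 CPM in controls for LMNA. TCHP passed without overexpression replicate 1 and LMNA without control replicate 4.

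ZEB1 (ENSG00000148516, chr10:31318495-31529814, plus strand), the zinc finger and homeobox repressor of epithelial genes, was the marker whose groups did not overlap in either CPM or TPM. It had 1190, 1014, 1126 and 973 counts in overexpression libraries, against 1410, 1261, 1201 and 1127 in controls. In CPM that was 44.6, 41.9, 41.9 and 40.3 under overexpression and 45.7, 47.7, 50.1 and 44.8 in controls. All overexpression libraries lay below all controls, the closest being overexpression replicate 1 and control replicate 4. In TPM it was 12.4, 14.1, 11.1 and 11.3 under overexpression, against 14.9, 17.2, 21.1 and 17.0 in controls, again with no overlap. These TPM depend on how counts were divided among transcripts of unlike length. ZEB1-222 (1500 bases) gave 7.21 of the TPM of control replicate 4 from 176 counts. ZEB1-219 gave 5.21 of the TPM of control replicate 3. Both were at 0 in all overexpression libraries. The part of this division in the TPM separation was not tested. For ZEB1 the log2 fold change was -0.16 (SE 0.05, 95% interval -0.27 to -0.05; edgeR adjusted p = 0.132), and on log2(TPM + 1) by limma it was -0.49. ZEB1-AS1, named because it overlaps ZEB1 on the other strand, had 4.82 ± 0.907 CPM under overexpression and 4.25 ± 2.55 CPM in controls.

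The counts of ZEB1 sat on different transcripts in different libraries. ZEB1-201 had 163, 704, 238 and 128 counts under overexpression and 1186, 1008, 731 and 0 in controls. ZEB1-204, annotated as subject to nonsense-mediated decay, had 990, 3, 808 and 815 counts under overexpression and 15, 0, 3 and 163 in controls. It held 83.2%, 0.296%, 71.8% and 83.8% of ZEB1 counts in the overexpression libraries, against 1.06%, 0, 0.250% and 14.5% in the controls. Overexpression replicates 1, 3 and 4 were thus high, and overexpression replicate 2 had almost none. ZEB1-204 had a log2 fold change of 3.83 (SE 2.08, unadjusted p = 0.109; edgeR adjusted p over transcripts = 0.923), which does not pass. With protein-coding transcripts alone, the gene's log2 fold change was -1.48 (SE 0.69; edgeR adjusted p = 0.310), against -0.16 with all transcripts. ZEB1-202 had 0, 256, 0 and 0 counts under overexpression and 179, 184, 86 and 776 in controls.

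Differences in coding sequence between these isoforms are shown. Between the first coding exon and the next one, ZEB1-204 (ENST00000437844, 11 exons) has 2 exons that ZEB1-201 and ZEB1-202 lack, chr10:31373018-31373173 (156 bases) and chr10:31387124-31387266 (143 bases), and the reading frame ends inside the first of them. The 104 bases from the start of that exon to the stop codon, in capitals, are (GRCh38, plus strand, chr10:31373018-31373121):
ZEB1-204 exon 2: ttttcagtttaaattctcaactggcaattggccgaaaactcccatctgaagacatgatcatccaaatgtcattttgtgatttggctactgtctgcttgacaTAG
ZEB1-201 and ZEB1-202 share their coding exons but for 3 bases at the start of exon 3, which begins at 31495779 in ZEB1-201 and at 31495776 in ZEB1-202. The last 30 bases of exon 2 and the first bases of exon 3, with the 3 extra bases in capitals, are:
ZEB1-201: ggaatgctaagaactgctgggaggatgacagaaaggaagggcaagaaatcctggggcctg
ZEB1-202: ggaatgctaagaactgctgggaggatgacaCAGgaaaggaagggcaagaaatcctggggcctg
Of the 50-base windows of ZEB1-201, 96.5% also occur in ZEB1-204, and 83.7% of those of ZEB1-204 occur in ZEB1-201.

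**Figure D4:**
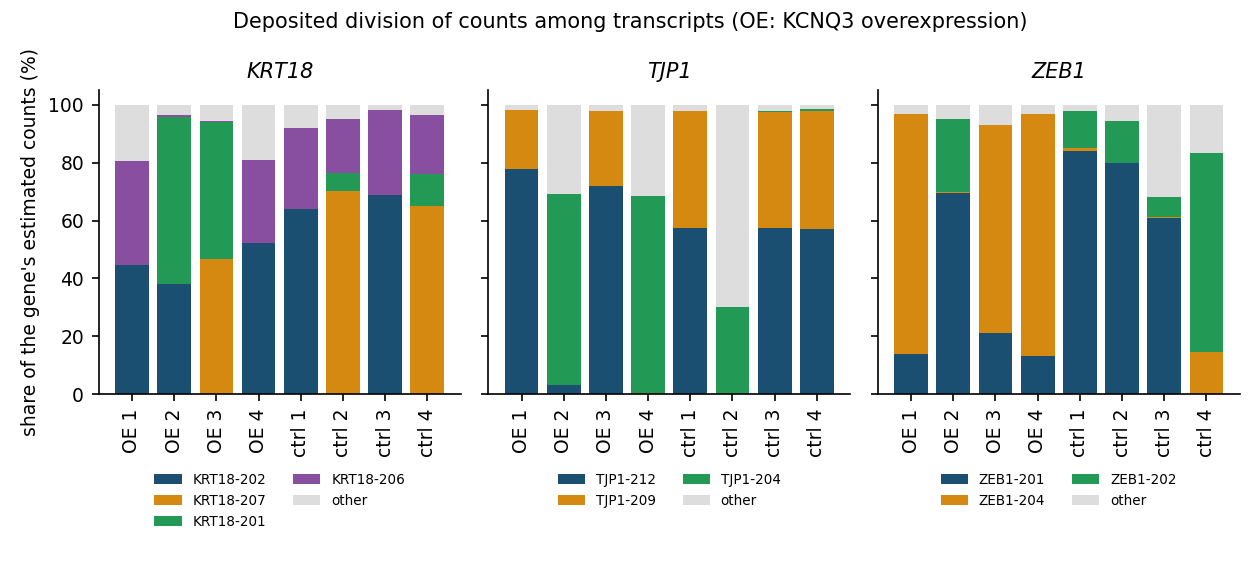
Share of the gene's estimated counts (percent, axis from 0 to 100) given to each transcript of KRT18, TJP1 and ZEB1 in each library, OE for KCNQ3 overexpression to the left of ctrl for control, with the remaining transcripts in grey. Shares switch between libraries of the same group, and ZEB1-204 leads in overexpression replicates 1, 3 and 4.

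Transcripts of KRT18 and TJP1 also switched between libraries. KRT18-202 had 355, 300, 0 and 388 counts under overexpression and 710, 0, 618 and 0 in controls, while KRT18-207, whose last exon runs through the final intron of KRT18-202, had 0, 0, 430 and 0 counts under overexpression and 0, 632, 0 and 550 in controls. TJP1-212 had 1528, 48, 1255 and 0 counts under overexpression and 1426, 0, 1011 and 996 in controls, and TJP1-204 had 5, 1028, 5 and 1011 counts under overexpression and 5, 580, 6 and 8 in controls. Some libraries of a group thus had none or nearly none of a transcript that others of the group had in quantity. Of the 50-base windows of KRT18-202, 88.9% occur in KRT18-207, and 74.0% the other way, and of those of TJP1-212, 92.8% occur in TJP1-204, and 95.7% the other way. Other markers had 1 main transcript when all libraries were pooled, with CDH2-201 holding 99.98% of the gene's TPM over all libraries, CDH1-212 90.6%, EPCAM-201 82.4%, KRT8-216 74.2% and MUC1-223 66.6%. By library, EPCAM-201 held as little as 48.8% of EPCAM counts (overexpression replicate 1) and KRT8-216 57.0% of KRT8 counts (control replicate 4). None of the 25 tested transcripts of the markers passed the transcript test, where 0.0127% of 47129 did, and none of the 6 markers with a usage test passed edgeR's diffSpliceDGE, where 0.383% of 9395 genes did. KRT18-207 and TJP1-204 were not among the transcripts kept for these tests, so the tests did not cover their switching. At an unadjusted p under 0.05, 0 of the 25 transcripts passed, against 5.58% of all. VIM was the 1 of the 6 with such a usage p (0.0282, adjusted p = 1), against 3.47% of all genes.

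The regulators around ZEB1 gave no call by edgeR. Of 15 transcription factors of the transition, all tested, none passed (10 below 0, median -0.03). The corepressor CTBP1 had 78.9 ± 3.48 TPM under overexpression and 78.0 ± 6.18 TPM in controls and the E protein TCF3 45.3 ± 3.87 TPM under overexpression and 46.4 ± 4.99 TPM in controls. SNAI2 and ZEB2, named after their values were seen, had opposite signs. SNAI2 (SLUG) had 948, 829, 854 and 692 counts under overexpression and 833, 666, 679 and 692 in controls, with no overlap in CPM (32.6 ± 3.02 under overexpression and 27.0 ± 1.34 in controls; log2 fold change 0.27, SE 0.07, edgeR adjusted p = 0.0904). ZEB2, the close paralogue of ZEB1, had 28.0 ± 2.92 CPM under overexpression and 33.6 ± 1.39 CPM in controls (log2 fold change -0.26, SE 0.07, edgeR adjusted p = 0.0976), and passed without overexpression replicate 1.

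On the epithelial side, 6 of 18 listed regulators were tested, none passed, 5 had values below 0 and the median was -0.23. KLF5, a zinc finger factor, had 11.9 ± 1.06 TPM under overexpression and 12.9 ± 0.860 TPM in controls, and the splicing regulator ESRP2 had 7.81 ± 0.437 TPM under overexpression and 8.41 ± 0.539 TPM in controls. GRHL3, a grainyhead factor of surface epithelia named after its values were seen, came nearest to the threshold of all genes on these lists. It had 37, 37, 24 and 26 counts in overexpression libraries, against 89, 61, 51 and 58 in controls, with no overlap in CPM. Its log2 fold change was -0.98 (SE 0.17; edgeR adjusted p = 0.0511). It passed without overexpression replicate 1, without control replicate 4 and with the replicate block. DESeq2 did not call GRHL3, but it gave no adjusted p for EPCAM and MUC1, whose counts were also low. The lack of a DESeq2 call may thus be a missing adjusted p and not a failed test. The miR-200 family, which represses ZEB1 and ZEB2 in epithelial cells, falls into groups by seed (bases 2 to 8, in capitals), here from RefSeq:
hsa-miR-200b-3p: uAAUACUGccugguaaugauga
hsa-miR-200c-3p: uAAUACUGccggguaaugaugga
hsa-miR-429: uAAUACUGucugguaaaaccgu
hsa-miR-200a-3p: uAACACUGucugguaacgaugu
hsa-miR-141-3p: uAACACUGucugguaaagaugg
The first 3 share one seed and the last 2 the other. MIR200CHG, the host RNA of the cluster on chromosome 12, named with its values known, had 0, 0, 1 and 0 counts under overexpression and 1, 0, 0 and 0 in controls, and the genes MIR200A, MIR200B and MIR429 were at 0, though libraries of long RNA do not measure mature miRNAs. Of 18 TGF-beta pathway genes, all tested, none passed (11 above 0, median 0.01). Its most abundant members were the inhibitors of differentiation ID2, with 152 ± 5.87 TPM under overexpression and 146 ± 9.20 TPM in controls, and ID3, with 48.4 ± 1.53 TPM under overexpression and 54.1 ± 4.64 TPM in controls.

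**Figure D5:**
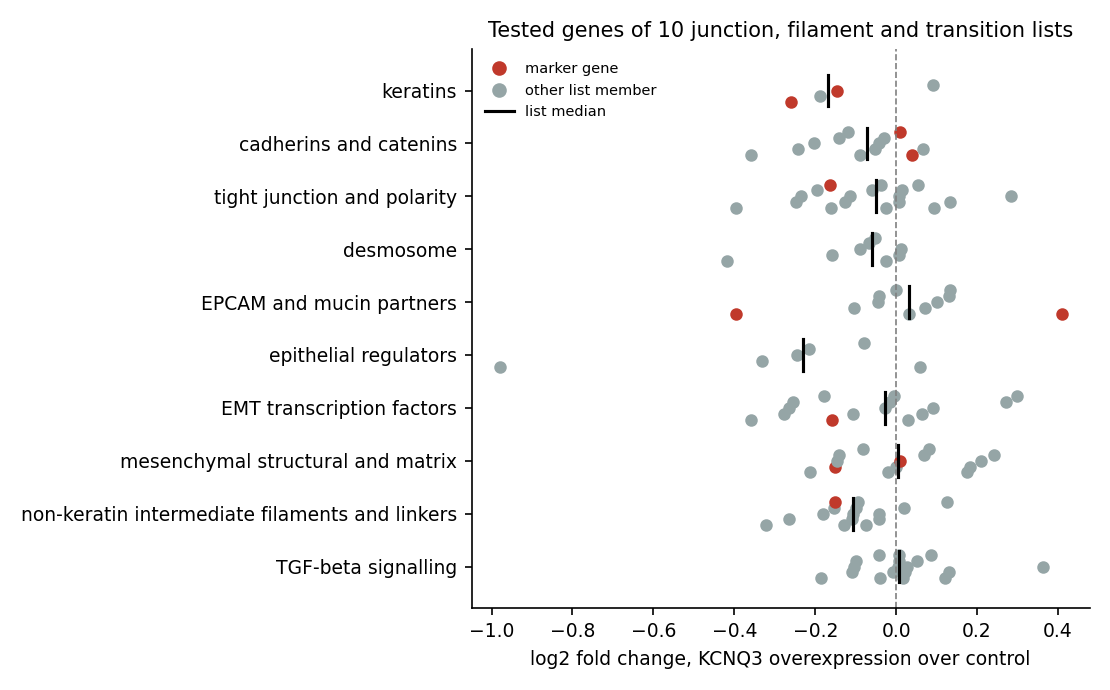
Log2 fold change of CPM, KCNQ3 overexpression over control, of the tested genes of 10 lists of junction, filament and transition genes, with the markers in red, other genes in grey and a bar at each list's median. No gene passed edgeR's test, list medians lie between -0.23 and 0.03, and GRHL3 at -0.98 is the lowest point.

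Genes with the most similar profile to a marker over the 8 libraries were found among 10093 genes of at least 10 CPM, as Pearson's r of log2 CPM between libraries that share depth and scaling. For KRT8 they were MAP2K7 (r = 0.989) and GRK6 (0.987), for KRT18 ROR2 (0.963) and PUSL1 (0.957), and for CDH2 SNX33 (0.940) and TMEM131 (0.934). For TJP1 they were KPNB1 (0.991) and KLHL29 (0.990), for VIM EEF1A2 (0.987) and ZNF787 (0.987), and for ZEB1 AMACR (0.962) and RNF144A (0.961). These r are the highest of 10093 values over 8 libraries, so the choice itself favours a high r. A link between these genes and the markers was not tested. None of these 12 genes passed the test between the groups.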

How the data were processed

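RNA of 4 KCNQ3 overexpression and 4 control libraries was sequenced. The submitters' processing notes name StringTie 2.1.0, HISAT2 2.1.0, SAMtools 1.9, FastQC 0.11.5 and cutadapt 2.8, with build GRCh38.p13. What each did, the annotation and the strand setting are not stated in those notes. The authors deposited estimated counts per transcript, as whole numbers, and TPM per transcript. Of 227751 transcripts, 205804 were matched to genes of GENCODE release 29 and 21947 were not, and the matched ones held 98.7% to 98.9% of each library's counts. Matched values were summed per gene. The main test was edgeR 4.0.16's robust quasi-likelihood test in R 4.3.3 on TMM-scaled counts kept by filterByExpr (minimum count 10, total 15), without covariates, with Benjamini-Hochberg adjustment over all genes or transcripts and a threshold of 0.05. Usage was tested with diffSpliceDGE. The tests were tested on simulated data. The gene changes set there were larger than those of the markers, so changes as small as theirs were not covered. The usage simulation gave all transcripts the same dispersion. It thus did not hold the switching between libraries of a group seen in transcripts of the markers. Alternatives were RLE factors, no scaling, other filters, non-robust estimation, DESeq2 1.42.0, limma 3.58.1 on log2(TPM + 1) or log2(TPM + 0.1), a replicate block, pseudogenes added, protein-coding transcripts alone and each library left out.

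The markers and lists were chosen with earlier results of these data known. The genes named were KCNQ3, the markers, the 2 most abundant genes by TPM of each list (none passed; some results are not reported here), the 2 genes most like each marker of at least 10 CPM and transcripts with at least 10% of a marker's TPM. Any other gene or transcript named was chosen with its values known or for its overlap with a marker. Between libraries of a group, chi-square per degree of freedom was 9.72 to 18.6, so none was a copy of another. Floors cover counting error only.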

Additional observations from a re-analysis of the deposited data

Results flagged for a closer look

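In each group of 4 libraries, gene levels and the levels of the markers' main transcripts were checked for a library whose gap to the nearest other took a larger share of the group's range than Dixon's 95% critical value. Of 66 groups tested, 12 were picked out, and all 12 were transcripts rather than whole genes. The rate of about 1 in 20 that chance gives holds for independent continuous values and is no fair measure here, since transcripts of a gene trade counts and in some groups all other libraries were at 0. Values are CPM over transcripts. In ZEB1, overexpression replicate 2 had 28.5 of ZEB1-201, against 5.15 to 8.71 in the other overexpression libraries, and 10.4 of ZEB1-202, against 0. Control replicate 4 had 6.34 of ZEB1-204, against 0 to 0.490 in the other controls, and 30.2 of ZEB1-202, against 3.56 to 7.01. In TJP1, control replicate 2 had 0 of TJP1-212, against 38.8 to 46.6, and likewise 0 of TJP1-209, against 27.86 to 32.95, but 22.1 of TJP1-204, against 0.163 to 0.311. Overexpression replicate 3 had 15.7 of KRT18-207, against 0 in the other overexpression libraries, and overexpression replicate 1 had 0.775 of EPCAM-206, against 0. MUC1-228 was at 0.607 in overexpression replicate 2 and at 0.3595 in control replicate 1 and at 0 in all other libraries. MUC1-217 was at 0 in overexpression replicate 4, against 0.162 to 0.184 in the others of that group. The part of the authors' division of reads in these values was not tested.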

How the results depend on the processing

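All settings were planned. No marker passed under any setting but DESeq2, where 2 did, KRT8 (log2 fold change -0.27, adjusted p = 0.0256) and ZEB1 (-0.16, adjusted p = 0.0312), which gave no adjusted p for EPCAM and MUC1. Their adjusted p ranged over the alternatives from 0.0256 to 0.368 for KRT8 and from 0.0312 to 0.310 for ZEB1. DESeq2 called 1352 genes in all and, the markers aside, 8 genes of the context lists, against 58 and 0 in the main test. No scaling gave 35 genes (9 above and 26 below control, against 21 and 37), non-robust estimation 30, and limma 7 with either pseudocount. The cause of these differences was not tested. Leaving out single libraries gave 8 to 378 genes (378 without overexpression replicate 1, 194 without control replicate 4) and 0 to 3 genes of the context lists. CDH2 changed sign to -0.0076 with no scaling, to -0.0372 with log2(TPM + 1) and to -0.0382 with log2(TPM + 0.1). With single libraries left out it ranged from -0.0278 (without overexpression replicate 1) to 0.0317, with -0.0027 and -0.0029 without control replicates 3 and 4. CDH1 ranged from -0.0398 (without overexpression replicate 4) to 0.156 (without control replicate 2), with -0.0329 without overexpression replicate 3 and -0.037 and -0.0062 without control replicates 3 and 4. Counts were low for EPCAM and MUC1, with at most 73 in a library.

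Same-numbered libraries did not deviate together (correlations from -0.05 to 0.01, against -0.07 to 0.08 for unlike numbers). No pairing by number was thus seen, though a shared culture or handling by number was not tested. With the replicate block 86 genes passed, 1 of them on the context lists (GRHL3), and 0 markers. Neither the transcript nor the usage test called a marker in any of 12 settings.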
